A study of Mus musculus with 2 samples.

Results

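Barcodes rich in Zg16 but outside the goblet gate were taken from droplet libraries of the mouse jejunum. Kept barcodes had at least 500 genes and at most 20% of their unique molecular identifiers (UMIs, 1 per captured transcript) from mitochondrially encoded genes. Of these, a barcode was called Zg16-rich when it held at least 5 Zg16 UMIs, when Muc2, Fcgbp, Tff3, Agr2 and Spink4 together made up less than 2% of its UMIs, and when Lyz1 and the Defa genes together made up less than 10%. This rule was met by 895 of 22282 kept barcodes, 28 of 11263 in the control library and 867 of 11019 in the antagonist library. Barcodes at or above 2% for the goblet genes form the goblet gate, those at or above 10% for the Paneth genes form the Paneth gate, and all the remaining ones are called other barcodes. The barcodes were chosen by their measured counts of Zg16 and of the gate genes, so those genes are given below as a description only. The word barcode is used in place of cell because whether each of these barcodes held a single cell was not tested, and no doublet caller was run.

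Both groups were Lgr5-eGFP-IRES-CreER mice, aged 10 to 12 weeks and labelled female. Jejunal cells sorted for GFP came from 3 mice treated with an Fc control protein and from 3 mice treated with a FZD5/8 antagonist, which blocks a pair of Frizzled receptors for Wnt ligands. Each condition is 1 pooled library with no label that ties a barcode to a mouse, so there was no replicate, no test was made, and every comparison is between these libraries or between sets of barcodes within 1 of them. The sources used here give neither dose nor duration of the treatment. This allele's reporter is known to be silenced in part of the crypts, so the sort samples only the crypts that express it. Every interval below is an exact 95% interval that covers counting error only.

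Goblet cells are the mucus-secreting cells of the intestinal epithelium. They release the gel-forming mucin Muc2 together with Fcgbp, a protein bound to the mucus gel, the trefoil peptide Tff3, the mucus-associated protease Clca1 and Zg16, a lectin that binds the wall of Gram-positive bacteria. The disulfide isomerase Agr2 serves mucin folding, and the transcription factors Atoh1 and Spdef drive secretory and goblet fate. Other cells of the epithelium are marked by separate genes: Paneth cells by Lyz1, defensins and Mmp7, enterocytes by the fat carriers Apoa1, Apoa4 and Fabp1, tuft cells by Dclk1 and Trpm5, and enteroendocrine cells by the granule proteins Chga and Chgb and by hormones. In a single differentiated cell, defining genes of more than 1 of these lineages are not usually seen together. Zg16 (ENSMUSG00000049350) lies at chr7:127050156-127087328 on the minus strand of GRCm38, and Clca1 (ENSMUSG00000028255) at chr3:145003817-145032776 on the minus strand.

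Some properties of the libraries bear on what follows. The control library held 67411637 UMIs and the antagonist library 55810293, with a median of 4478 and 2732 UMIs per kept barcode. Both libraries were labelled female, but the control library gave a summed level of Y-linked genes of 106 CPM (UMIs of the gene per 1000000 UMIs of the set) and 1.33 CPM of Xist, against 5.60 CPM and 512 CPM in the antagonist library. The sex label therefore did not match the control library, and treatment and sex cannot be told apart. The libraries shared 145 barcode sequences, and 67 of these were kept in both. Among the 145, 81 were Zg16-rich in the antagonist library (9.34% of its 867), with a median of 74487 UMIs there and 655 UMIs on the control side. The other 64 shared barcodes had a median of 1492.5 UMIs on the antagonist side and 5095.5 on the control side. For the 27 antagonist Zg16-rich barcodes that were kept in both libraries, the control side held 9 Xist UMIs, which is 283 CPM. The 40 kept in both that were not Zg16-rich held 0 Xist UMIs on the control side, which allows up to 16.7 CPM. Values without the shared barcodes are given below beside the share of the library, the main counts of genes apart and the neighbours. They are also given beside the depth, pair and spread measures and some library totals.

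The Zg16-rich barcodes made up 7.87% of the kept antagonist barcodes (interval 7.37 to 8.39) and 0.249% of the control ones (0.165 to 0.359). Without the shared barcodes the shares were 7.22% and 0.206%. When every barcode was thinned at random to 3000 UMIs before the rule was applied, with shallower ones left out, the shares were 7.68% and 0.119%. The difference between the libraries was therefore larger than counting error at equal depth as well. The size of the antagonist share followed the Paneth limit: with Lyz1 and the Defa genes held under 2% in place of 10%, 2.57% of the antagonist barcodes qualified. Among barcodes that failed the quality filter, 4 of 1409 in the control library (0.284%) and 3 of 2066 in the antagonist library (0.145%) met the same Zg16 and gate limits.

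Zg16-rich barcodes of the antagonist library were deep. Their total UMI count ranged from 913 to 138919 with a median of 11556, and they held a median of 3176 genes. Goblet-gate barcodes of the same library had a median of 3023 UMIs and 1295 genes, and other barcodes 2484.5 UMIs and 1229 genes. Being 7.87% of the kept barcodes, they held 36.2% of the kept UMIs. In 319 of them the total was 20000 UMIs or more, with a median of 46828 UMIs and 6280 genes, and these 319 alone held 28.8% of the UMIs. Without the shared barcodes, 786 barcodes held 28.0% of the remaining UMIs and the 240 deep ones among them 19.7%, with a median of 9565 UMIs over the 786. Zg16 itself had a median of 17 UMIs and a maximum of 1072. The 5 mucus genes of the gate had a median of 0.516% of UMIs, well inside the limit of 2%, and Lyz1 with the Defa genes a median of 2.45%. Mitochondrially encoded genes took a median of 3.42%.

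**Figure D1:**
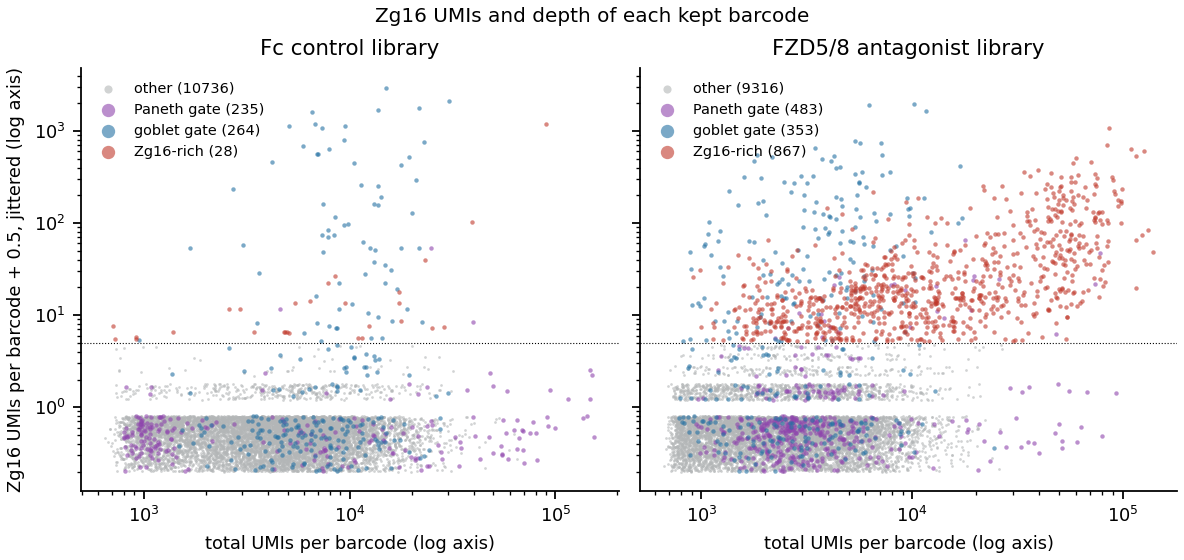
Each point is 1 kept barcode, with its total UMIs (horizontal, log axis) against its Zg16 UMIs plus 0.5, jittered (vertical, log axis, with a dotted line at 5), coloured by set, in the Fc control and the FZD5/8 antagonist library. The antagonist Zg16-rich barcodes reach 138919 UMIs and fill the right of their panel, where the goblet-gate barcodes end at 24455.

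The share of barcodes that were Zg16-rich climbed steeply with depth in the antagonist library and little in the control library. Under 2500 UMIs, 97 of 5087 antagonist barcodes (1.91%) were Zg16-rich. Between 10000 and 20000 UMIs it was 143 of 404 (35.4%), and between 20000 and 40000 UMIs 124 of 156 (79.5%, interval 72.3 to 85.5). Of the 209 antagonist barcodes of 40000 UMIs or more, 195 were Zg16-rich (93.3%, 89.0 to 96.3), and the other 14 lay in the Paneth gate. Without the shared barcodes it was 116 of 127 (91.3%, 85.0 to 95.6). In the control library the corresponding numbers were 5 of 3061 (0.163%), 6 of 1236 (0.485%), 4 of 206 (1.94%) and 1 of 46 (2.17%), and 36 of those 46 lay in the Paneth gate. The rule asks for a number of UMIs, so it is met more easily at depth, and the thinned shares above do not carry that dependence. Within the antagonist Zg16-rich barcodes the level of Zg16 was highest in the shallow ones, at 6830 CPM under 2500 UMIs, 3852 CPM between 2500 and 5000 and 3013 CPM between 5000 and 10000. It was 1621 CPM between 10000 and 20000, 1901 CPM between 20000 and 40000 and 1900 CPM above that. The minimum of 5 UMIs by itself asks for a higher level in a shallower barcode, so this order is in part set by the rule. The enterocyte gene Apoa1 stayed between 236 and 409 CPM over the same 6 depth ranges, and Lyz1 between 450 and 868 CPM.

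**Figure D2:**
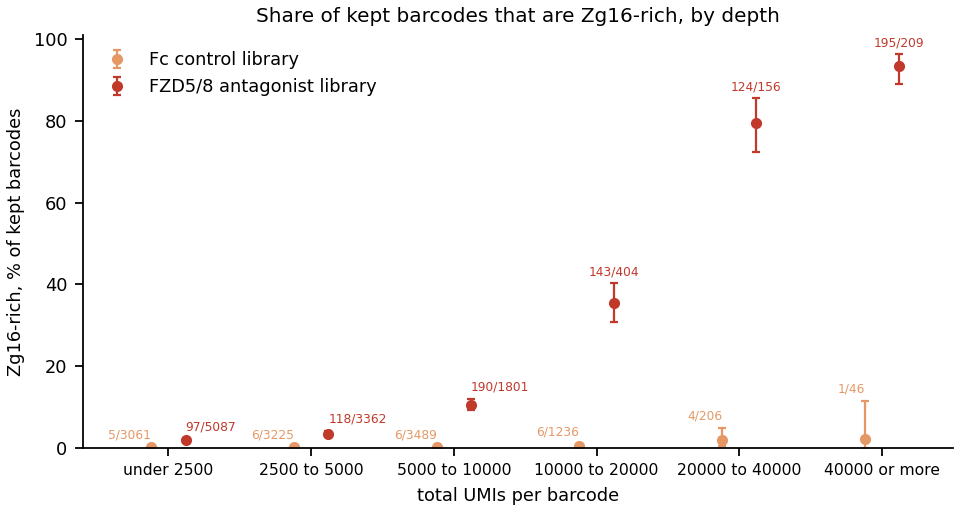
Points give the share of kept barcodes that were Zg16-rich (vertical axis, percent) in each range of total UMIs (horizontal axis) for each library, bars their exact 95% binomial intervals, and the numbers beside them Zg16-rich over kept barcodes. The antagonist share goes from 1.91% to 93.3%, and the control share is at most 2.17%.

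Barcodes just inside and just outside the Zg16 limit had similar levels of Clca1. The 95 antagonist barcodes with 5 or 6 Zg16 UMIs had 58.6 CPM of Clca1, 288 CPM of Apoa1 and 587 CPM of Lyz1. The 145 barcodes outside the gates with 3 or 4 Zg16 UMIs had 60.0 CPM of Clca1, 399 CPM of Apoa1 and 363 CPM of Lyz1. In the 8029 other antagonist barcodes with no Zg16 UMI, Clca1 was at 3.62 CPM and Lyz1 at 63.4 CPM. At the goblet limit, the 26 barcodes with 1.5 to 2% of UMIs from the goblet-gate genes had 7253 CPM of Zg16 and 872 CPM of Muc2. The 8 with 2 to 2.5% had 13110 and 1565 CPM.

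Against the goblet gate, the marker genes of goblet cells were low in the Zg16-rich barcodes. All 25 measured goblet genes that the rule did not use were at least 2-fold lower, with a summed level of 619 CPM against 5754 CPM and a median log2 ratio of -3.45. Over all 3046 genes compared, 231 (7.58%) were at least 2-fold lower and 142 (4.66%) at least 2-fold higher, with a median log2 ratio of 0.13. Clca1, the mucus protease, was at 103 CPM in the Zg16-rich barcodes and 1172 CPM in the goblet gate. Spdef was at 5.35 CPM against 80.3 CPM, 11.4 to 19.8 times lower by its interval, and Atoh1 at 10.5 CPM against 121 CPM. Ccl9, a chemokine, was 18.9 times lower (16.3 to 21.9), and the secreted phospholipase Pla2g10 18.2 times lower (12.8 to 25.9). Rep15, a Rab15-binding protein, was at 20.6 CPM against 279 CPM, and the endoplasmic reticulum chaperone partner Fkbp11 at 21.7 CPM against 300 CPM. Further genes among the 12 lowest ratios were Rap1gap, Cbfa2t3, Sytl2, Ano7, the receptor tyrosine kinase Kit, Cracr2a and Mcf2l, at 12.3 to 15.5 times lower. The set called by Zg16 thus differed from the goblet gate in every goblet gene measured, and is not called a goblet cell set here. That direction is in part set by the rule, since the goblet gate was chosen for high levels of its own genes.

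Other secretory genes lay below the goblet gate too. Of 24 genes for protein folding and export in the endoplasmic reticulum, 18 were at least 2-fold lower and 0 higher, at 5254 CPM summed against 11862 CPM. Txndc5, a disulfide isomerase, was at 56.7 CPM against 652 CPM. Of 8 measured genes of secretory progenitors, 7 were at least 2-fold lower, among them the Notch ligand Dll1 at 10.0 CPM against 123 CPM.

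Genes of other lineages were higher than in the goblet gate. Among 28 enterocyte genes, 20 were at least 2-fold higher and 1 lower, with 8892 CPM summed against 5552 CPM. Apoa1 was at 268 CPM against 30.5 CPM, a ratio of 8.80 (6.48 to 12.3). Fabp1, the liver-type fatty acid carrier, was at 1303 CPM against 309 CPM, a ratio of 4.21 (3.82 to 4.65). The disaccharidase Sis was at 104 CPM against 28.3 CPM. Among 16 measured tuft genes, 11 were at least 2-fold higher and 0 lower (212 against 80.3 CPM summed), with the taste-type cation channel Trpm5 at 9.93 against 1.49 CPM. The goblet gate held 108 UMIs of the tuft list, so single tuft genes lay near the floor there. Of 14 Paneth genes, 7 were at least 2-fold higher and 3 lower. Mptx2, a pentraxin of Paneth cells, was at 113 CPM against 6.69 CPM (ratio 16.9, 8.87 to 37.0), and Mmp7, the protease that activates defensins, lower at 71.7 against 305 CPM. The near-identical Defa genes, and Lyz1 with its copy Lyz2, can share reads, so their single values are uncertain.

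Of 9 measured enteroendocrine genes, 7 were at least 2-fold higher and 2 lower, with a median log2 ratio of 2.01. Their summed level had the opposite sign, 83.7 CPM against 425 CPM, because the hormone gene Sct was at 35.8 CPM against 416 CPM. The goblet gate held 572 UMIs of this list, mostly Sct, and 9 of its 17 genes had 0 UMIs there. The 7 higher calls and the median thus rest on goblet-gate values near the floor. The stem cell product Olfm4 was at 335 CPM against 98.1 CPM, but of 19 stem cell genes only it was among those at least 2-fold higher, with 2 lower. In the cell cycle lists no gene was 2-fold apart, but all 20 S phase genes and all 20 G2 and M phase genes were higher in the Zg16-rich barcodes. The S phase list summed to 1313 CPM against 939 CPM (ratio 1.40, interval 1.32 to 1.48) and the G2 and M phase list to 2995 CPM against 2080 CPM (1.44). Notch targets and receptors of absorptive progenitors had 4 of 5 measured genes at least 2-fold higher, at 163 CPM summed against 95.2 CPM. Scaling by a median-of-ratios factor in place of the total gave 98 genes higher and 272 lower in this comparison. A goblet gate drawn at 1% gave 21 and 120, and leaving out the shared barcodes gave 123 and 235.

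Barcodes whose depth overlapped in part give another reference. Other antagonist barcodes with between 5070 and 35141.5 UMIs, the middle range of the Zg16-rich ones, numbered 1677 and had a median of 6779 UMIs and 2285 genes. They are called others of like depth here, although their highest total was 26831 UMIs, and only 16 other antagonist barcodes held 20000 UMIs or more, where 319 of the Zg16-rich ones lay. Of 2855 genes compared, 43 (1.51%) were at least 2-fold higher in the Zg16-rich barcodes and 21 (0.736%) at least 2-fold lower, and the median log2 ratio was -0.02. Goblet and Paneth genes were high together. In the goblet list, 18 of 25 genes were at least 2-fold higher and 0 lower, at 619 CPM summed against 206 CPM. In the Paneth list it was 14 of 14, at 26949 CPM against 3008 CPM. That list includes Lyz1 and Defa genes, which the rule held under 10% in both sets. With only the 433 Zg16-rich barcodes of the same UMI range, still at a median of 11556 UMIs, 39 genes were at least 2-fold higher and 9 lower, with goblet genes at 602 CPM and Paneth genes at 34683 CPM summed. Clca1 had the highest ratio of all named genes, at 103 CPM against 4.56 CPM (22.5, interval 17.4 to 29.6). By the rule the others hold at most 4 Zg16 UMIs. The higher level of goblet genes that go with Zg16, Clca1 among them, is therefore in part set by the rule. Guca2a, which encodes the hormone guanylin, was at 105 CPM against 8.12 CPM. Mmp7 was at 71.7 CPM against 4.49 CPM, the bacterial glycan-binding lectin Itln1 at 876 CPM against 77.7 CPM (11.3, 10.6 to 12.0), and the angiogenin Ang4 at 144 CPM against 14.8 CPM. The colipase Clps and the chemokine Ccl6 had ratios of 10.8 and 11.1. Atoh1 was at 10.5 CPM against 1.62 CPM.

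Enterocyte genes were on the low side of that comparison, with 13 of 28 at least 2-fold lower and 0 higher, at 8892 CPM summed against 17840 CPM. The median over single barcodes had the other order, 8966 CPM in the Zg16-rich ones and 6899 CPM in the others, whose highest 5% lay above 82072 CPM. With only Zg16-rich barcodes of the same UMI range 5 of the 28 genes were at least 2-fold lower. The retinol carrier Rbp2 was at 1301 CPM against 4388 CPM, 3.37 times lower (3.32 to 3.42). Apoc3, Apoa4 and Apoa1 were 2.96, 2.95 and 2.46 times lower, and the glutathione transferases Gsta1 and Gstm3 3.26 and 2.44 times. The antimicrobial lectin Reg3a was at 18.7 CPM against 56.0 CPM. Neurotensin (Nts), an enteroendocrine hormone, gave 1 UMI in the Zg16-rich barcodes and 1179 in the others. Over the enteroendocrine list 5 of 13 measured genes were at least 2-fold lower and 0 higher, at 83.7 CPM summed against 202 CPM. Of 13 measured genes that face the gut microbes, such as the Reg3 lectins, 4 were at least 2-fold higher and 1 lower, and the higher ones include Itln1 and Ang4 of the Paneth list. Of the 24 genes for folding and export, 2 were at least 2-fold higher. Tuft genes summed to 212 CPM against 211 CPM (interval of the ratio 0.957 to 1.05) and the Notch list to 163 against 168 CPM (0.970, 0.918 to 1.02). With only Zg16-rich barcodes of the same UMI range, tuft genes summed to 272 CPM (1.29, 1.21 to 1.37) and enteroendocrine genes to 90.1 CPM. Medians over single barcodes were 172 CPM against 0 CPM for tuft genes and 40.1 CPM against 0 CPM for enteroendocrine genes. The others were shallower at the median, which bears on medians of 0. Stem genes were somewhat higher, at 1052 against 854 CPM (1.23, 1.20 to 1.26), with 17 of 20 genes above the reference and 1 of them at least 2-fold. The lower calls were few and moved with the set. They numbered 12 without the shared barcodes, 4 without barcodes over 20000 UMIs and 1 after thinning, whereas the higher calls numbered 40, 45 and 42.

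**Figure D3:**
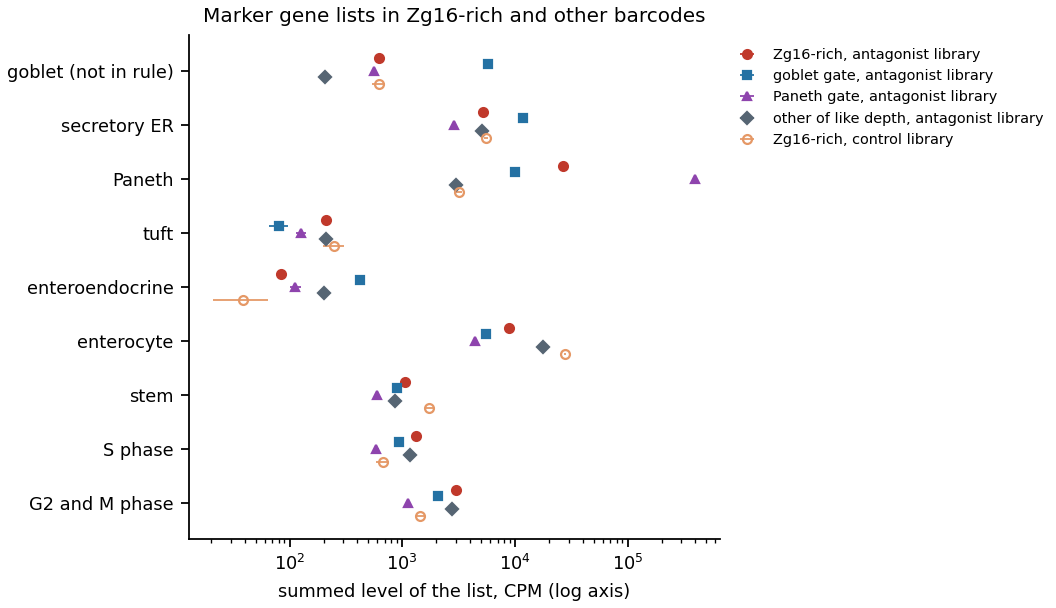
Each symbol is the summed level of a marker list (horizontal axis, CPM, log scale) in 1 set of barcodes, and bars are exact 95% Poisson intervals, which are mostly narrower than the symbol. For goblet genes outside the rule the antagonist Zg16-rich barcodes (619 CPM) lie between others of like depth (206 CPM) and the goblet gate (5754 CPM), and for Paneth genes (26949 CPM) far above the control Zg16-rich barcodes (3169 CPM).

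Set against all other kept antagonist barcodes together, gate barcodes included, the summed profile of the Zg16-rich barcodes differed in few genes. Of 2849 genes compared, 16 (0.562%) were at least 2-fold apart, 11 (0.386%) higher and 5 (0.176%) lower, and 95.7% lay within 1.5-fold. When the shared barcodes were left out, 9 of 2796 were higher and 2 lower, and 97.6% lay within 1.5-fold. The Spearman correlation of the summed levels across these genes was 0.961, a description over genes of 1 library, which are not replicates. Goblet-gate barcodes against all others had 345 of 3040 genes (11.3%) at least 2-fold apart and 72.8% within 1.5-fold. Paneth-gate barcodes had 2231 of 2785 (80.1%), nearly all of them lower, with the defensins taking much of the total. The 1677 other barcodes of like depth, set against the library without the Zg16-rich barcodes, had 37 of 2789 (1.33%). Of their genes 98.2% lay within 1.5-fold, with a Spearman correlation of 0.960. A summed profile near the rest of the library was thus not particular to the Zg16-rich barcodes. Splitting by depth gave 8 of 2783 genes (0.287%) for Zg16-rich barcodes under 20000 UMIs and 34 of 2907 (1.17%) for those of 20000 or more, again against all kept barcodes that were not Zg16-rich.

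The lists of lineage markers lay close to the library as well. Summed goblet genes outside the rule were at 619 CPM against 464 CPM, with 3 of 25 at least 2-fold higher. Paneth genes were at 26949 CPM against 39660 CPM, with 1 of 14 at least 2-fold lower, Defa22. Stem genes were at 1052 against 1088 CPM with 0 of 20 apart, and G2 and M phase genes at 2995 against 2453 CPM with 0 of 20 apart. Enterocyte genes were at 8892 against 12553 CPM with 4 of 28 at least 2-fold lower, and tuft genes at 212 against 305 CPM with 2 of 17 lower. Enteroendocrine genes stood farthest below, with 10 of 17 at least 2-fold lower and a summed level of 83.7 CPM against 238 CPM. The hormone genes Gip, Gcg and Sst had 0 UMIs in the Zg16-rich barcodes, which allows up to 0.153 CPM, and 15.1, 3.43 and 1.38 CPM in the rest. Cck was at 0.764 CPM against 19.4 CPM.

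Genes named at the top of this comparison were not lineage markers apart from Guca2a, at 105 CPM against 44.7 CPM. They were the replication histones Hist1h2ae (249 CPM against 94.3 CPM, ratio 2.64, interval 2.53 to 2.76) and Hist1h2ap (60.2 against 26.0 CPM), ubiquitin Ubb (1987 against 837 CPM), the actin-binding peptide Tmsb4x (1754 against 819 CPM) and the AP-1 factor Jund (214 against 105 CPM). On the low side were Apoa4 and Rbp2, 2.28 and 2.07 times lower, and then Gstm3, Papss2, Spcs1 and Apoc3, 1.86 to 1.92 times lower. Markers of cells outside the epithelium were low, but T and NK cell genes lay above both references. They summed to 6.36 CPM on 125 UMIs, with 1 of 11 at 0, against 4.35 CPM in the rest (ratio 1.46, interval 1.14 to 1.87). Others of like depth had 2.17 CPM of them on 28 UMIs (ratio 2.94, 1.94 to 4.60). Zg16-rich barcodes of the same UMI range had 14.5 CPM. B and plasma cell genes summed to 3.77 CPM with 4 of 8 at 0, against 3.78 CPM in the rest. Stromal genes summed to 1.17 CPM with 6 of 8 at 0, against 1.33 CPM. Endothelial genes summed to 0.255 CPM with 3 of 5 at 0, against 0.288 CPM. All 5 red cell genes were at 0. Myeloid genes summed to 290 CPM with 4 of 9 at 0, and 281 CPM of this was Cd74, the invariant chain of MHC class II, which epithelial cells express too.

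**Figure D4:**
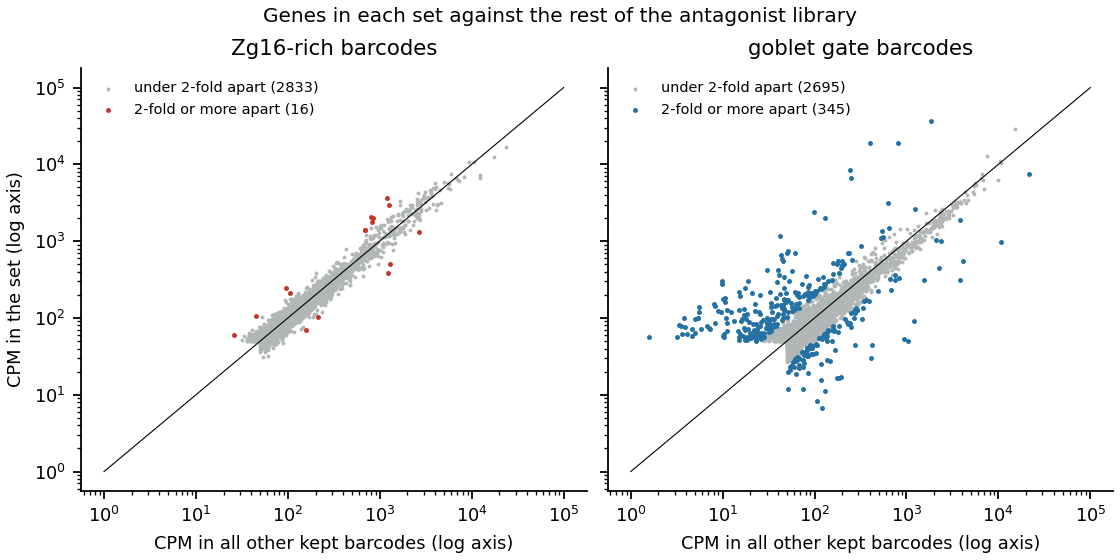
Each point is a gene, with its summed level in all other kept antagonist barcodes (horizontal axis, CPM, log scale) against its level in the Zg16-rich barcodes (left) or the goblet-gate barcodes (right; vertical axis, CPM, log scale), and the line marks equal levels. Of the genes compared, 16 are at least 2-fold apart for the Zg16-rich barcodes and 345 for the goblet gate, shown in colour.

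Markers of different lineages were found in the same barcodes. To compare sets at equal depth, each barcode was thinned to 3000 UMIs, which left out 125 of the 867 antagonist Zg16-rich barcodes and 5983 antagonist barcodes in all. At that depth 29.8% of the Zg16-rich barcodes had a Clca1 UMI (64.8% unthinned), against 50.6% in the goblet gate and 1.07% in other barcodes of like depth. For Lyz1 the thinned shares were 76.5%, 21.3% and 8.65%. Apoa1 was found in 47.4%, 5.62% and 14.8%, and Fabp1 in 96.2%, 31.5% and 71.4%. Both the Paneth gene and the enterocyte gene were thus found in more of the Zg16-rich barcodes than of either reference. Dclk1, the kinase that marks tuft cells, was found in 7.41%, 1.69% and 2.68%. Chga was found in 2.83%, 0% (0 of 178, which allows up to 1.69%) and 1.37%. These 2 genes do not stand for their lists. Against others of like depth, tuft genes summed to 212 against 211 CPM, or 272 CPM with only Zg16-rich barcodes of the same UMI range. Enteroendocrine genes summed to 83.7 against 202 CPM, with 5 of 13 at least 2-fold lower and 0 higher. Lgr5 was found in 0.270% of the thinned Zg16-rich barcodes and 0.537% of the others of like depth.

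Lyz1 and Apoa1 were found together in 266 of 742 thinned Zg16-rich barcodes (35.8%, interval 32.4 to 39.4). The product of their separate shares in that set is 36.3%. Lyz1 is a gene that the rule used, as part of an upper limit. In other barcodes of like depth both were found in 34 of 1677 (2.03%), where the product is 1.28%, and in the goblet gate in 3 of 178 (1.69%). Paneth-gate barcodes, which the rule keeps out, had both in 70 of 240 (29.2%). The share was 37.0% among Zg16-rich barcodes of 20000 UMIs or more and 35.0% among those with fewer, and 79 of the 81 shared barcodes lie in the deeper group. With the shared barcodes left out, the share with both was 36.5% of the 661 remaining and 39.2% of the 240 deep ones. Without thinning, 318 of the 319 barcodes of 20000 UMIs or more held both genes. At least 3 of 5 genes were found in 103 thinned Zg16-rich barcodes (13.9%), 4 of like depth (0.239%) and 1 in the goblet gate (0.562%). The 5 genes were Clca1, Lyz1, Apoa1, Dclk1 and Chga, a set picked after their values were seen. Dclk1 and Chga do not speak for their lists here, and the enteroendocrine list was lower in sum than in others of like depth. Free RNA in the droplets and the capture of several cells both put UMIs of other lineages in a barcode, and their part in these shares was not tested.

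The Zg16-rich barcodes differed little from one another in most genes. After thinning, the variance of the counts over their mean, which is 1 for pure sampling, had a median over 813 genes of 1.04 in Zg16-rich barcodes of 20000 UMIs or more and also 1.04 below that depth. It was 1.13 in others of like depth and 1.16 in the goblet gate. Genes with a ratio over 2 numbered 16 in the Zg16-rich barcodes of 20000 UMIs or more, 21 in those with fewer, 69 in others of like depth and 53 in the goblet gate. In the 240 deep barcodes that were not shared the median was also 1.04, with 17 genes over 2, and Apoa1 and Fabp1 were at 1.64 and 1.62. Marker genes of enterocytes showed a wide gap. Apoa1 had a ratio of 1.58 in the deep Zg16-rich barcodes, 7.77 in the shallower ones and 35.2 in others of like depth, and Fabp1 had 1.53, 7.85 and 49.4. Olfm4 had 1.04, 1.04 and 3.74. The proliferation gene Mki67 had 1.23, 1.12 and 1.41, with 2.44 in the goblet gate. Clca1 had 1.28 in the deep Zg16-rich barcodes and 11.3 in the goblet gate, at means of 0.304 and 3.52 thinned UMIs. Zg16, which chose the barcodes, had 8.06 in the deep ones, 12.7 in the shallower ones and 260 in the goblet gate. Its means there were 5.39, 8.24 and 58.1 UMIs. This ratio can rise with the mean, so gaps between sets or genes of unlike level are in part gaps in level.

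**Figure D5:**
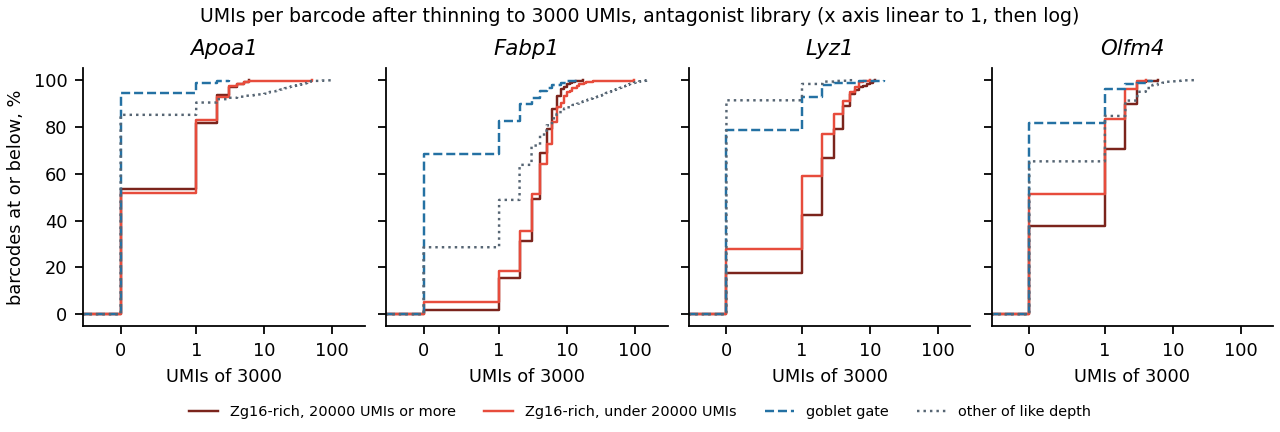
Curves give the share of barcodes (vertical axis, percent) at or below each number of UMIs after thinning to 3000 UMIs (horizontal axis, linear to 1 and then log), for Apoa1, Fabp1, Lyz1 and Olfm4 in 4 sets of the antagonist library. Among others of like depth Apoa1 and Fabp1 have long upper tails (variance over mean 35.2 and 49.4), which are short in the Zg16-rich barcodes of 20000 UMIs or more (1.58 and 1.53).

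Unthinned levels in single barcodes also lay in bounded ranges over the 319 antagonist Zg16-rich barcodes of 20000 UMIs or more. Fabp1 ranged from 429 to 3787 CPM with a median of 1145 CPM, and no barcode lacked it. Rbp2 ranged from 322 to 5668 CPM with a median of 973 CPM. Lyz1 ranged from 35.7 to 3944 CPM with a median of 657 CPM, and Itln1 from 35.7 to 6007 CPM with a median of 784 CPM. The mitotic topoisomerase Top2a was found in every one, from 142 to 884 CPM with a median of 424 CPM. Dmbt1, a mucosal scavenger receptor, ranged from 1670 to 4444 CPM with a median of 2836 CPM. Zg16 ranged from 93.1 to 12441 CPM with a median of 1111 CPM, and Clca1 went from 0 to 587 CPM with a median of 62.7 CPM. Over the middle 90% of barcodes, the summed enterocyte list ran from 6342 to 13497 CPM in this deep set and from 3416 to 82072 CPM in others of like depth. The G2 and M phase list ran from 2184 to 3963 CPM in the deep set and from 0 to 7185 CPM in the others. These ranges are not at equal depth, since the medians were 46828 and 6779 UMIs, and counting error is wider in shallower barcodes. After thinning, the variance over mean was 1.23 and 1.41 for Mki67 and 1.58 and 35.2 for Apoa1.

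Goblet genes went with Zg16 inside the set. Over the 867 antagonist Zg16-rich barcodes, the genes with the highest Spearman correlation with the CPM of Zg16, out of 6952 genes present in at least 20% of them, were Fcgbp (0.57), Tff3 (0.49), Agr2 (0.38), Spink4 (0.38), Muc2 (0.37), Actb (0.37), Lgals2 (0.32), Clca1 (0.30), Ndufa4 (0.21) and Dmbt1 (0.20). Among the 319 deep barcodes the goblet genes were higher, with Clca1 at 0.72, Muc2 at 0.71, Fcgbp at 0.70 and Tff3 at 0.68. Actb, Lgals2, Ndufa4 and Dmbt1 had negative values there, from -0.20 to -0.11. Zg16 CPM went against total UMIs with -0.50, and the rule admits a shallow barcode only at a high share. Lyz1 had -0.30 over all and -0.23 in the deep barcodes, and Apoa1 -0.20 and -0.15. All these points share 1 library, so the values are descriptions.

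Relative to Zg16, the Zg16-rich barcodes and the goblet gate can be set side by side as a description only, since the selection for Zg16 lowers such ratios in the former. Per 100 Zg16 UMIs the antagonist Zg16-rich barcodes held 5.03 Clca1 UMIs and the goblet gate 6.19, and for Guca2a the values were 5.13 and 3.71. Of the gate genes, Muc2 was at 9.81 and 12.5, and Agr2 at 35.8 and 99.2.

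On genes that the rule did not use, the Zg16-rich barcodes lay near one another, in part with their depth. Principal components were made from unthinned counts without the rule genes and the goblet list, and Paneth genes outside the rule were not left out. For each Zg16-rich antagonist barcode 77.5% of its 15 nearest neighbours were Zg16-rich, where the library share is 7.87%. Another 20.2% were other barcodes, 1.80% were of the Paneth gate and 0.515% of the goblet gate. The value was 98.6% for those of 20000 UMIs or more and 65.2% for those with fewer. Without the shared barcodes it was 75.6%. After thinning it was 37.8%, where the thinned library share was 7.68%, so depth moved with it. The thinned value is over the 387 barcodes that met the rule at 3000 UMIs, so the set changed as well. In addition, 174 antagonist barcodes that were not Zg16-rich had mostly Zg16-rich neighbours (1.71% of the barcodes outside the set), with a median of 5763.5 UMIs.

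The 28 control barcodes were fewer and different. They had a median of 7162 UMIs and 2265.5 genes, close to the control goblet gate at 7843 UMIs and above other control barcodes at 4402 UMIs, and 5 held 20000 UMIs or more. A single one of them held 89649 of the 364768 UMIs of the set and 1189 of its 1566 Zg16 UMIs, so the sums below lean on few barcodes. They carried 0.551% of the control UMIs. Of 3165 genes compared with all other kept control barcodes, 389 (12.3%) were at least 2-fold apart, where the antagonist set had 0.562%, but the control sums rest on far fewer UMIs. Lyz1 and Apoa1 together were found in 0 of 21 after thinning, which allows up to 14.3%. The product of their separate thinned shares is 4.54%, so 0 of 21 says little. Without thinning both were found in 3 of the 28 (10.7%), and in 2 of the 5 barcodes of 20000 UMIs or more. Median variance over mean was 1.34 over 723 genes in the 21 thinned barcodes. Of the 28, 23 were not shared with the antagonist library and held 0 Xist UMIs, which allows up to 11.0 CPM. The 4 kept in both libraries were Zg16-rich in both and had 2 Xist UMIs on the control side.

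Antagonist against control Zg16-rich barcodes differed in Paneth genes and in summed enterocyte genes. Of 3007 genes, 109 (3.62%) were at least 2-fold higher and 114 (3.79%) at least 2-fold lower, with a median log2 ratio of -0.01. Without the shared barcodes the counts were 78 and 138, and without the deepest control barcode 97 and 136. All 14 Paneth genes measured, Lyz1 and Defa genes of the rule included, were at least 2-fold higher, at 26949 CPM summed against 3169 CPM. Itln1 was at 876 CPM against 123 CPM (ratio 7.10, interval 5.30 to 9.74), Clps had a ratio of 6.91, Mptx2 of 5.15 and Ang4 of 4.37. Mmp7 rested on 2 control UMIs (ratio 13.1, 3.61 to 108). Xist had the highest ratio of all named genes, at 558 CPM against 5.48 CPM. S phase genes had 11 of 20 at least 2-fold higher, and G2 and M phase genes 14 of 20 (2995 against 1450 CPM summed).

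Enterocyte genes had lower sums in the antagonist set, with 21 of 28 at least 2-fold lower and 0 higher, at 8892 CPM summed against 28051 CPM. The control sum came from few barcodes, since 3 of the 28 held 66.5% of its enterocyte UMIs. The median over single barcodes had the other order, 8966 CPM in the antagonist set and 6032 CPM in the control set, and without thinning an Apoa1 UMI was found in 74.97% and 21.4% of them. Apoc3 was at 47.2 CPM against 452 CPM, 9.57 times lower (8.06 to 11.3), and Fabp1 at 1303 CPM against 7301 CPM. The antimicrobial lectins Reg3g and Reg3b were 8.84 and 8.68 times lower, the liver- and gut-expressed antimicrobial peptide Leap2 12.3 times, lactase (Lct) 8.78 times, the selenium carrier Selenop 7.64 times, the interferon-induced Ifit1 6.58 times and the sugar transporter Slc2a2 5.59 times. In the stem cell list 8 of 19 genes were at least 2-fold lower and 1 higher, with Lgr5 at 2.24 CPM against 21.9 CPM. The goblet genes outside the rule summed to 619 CPM against 620 CPM, with 1 of 25 at least 2-fold higher and 3 lower. Of the 226 control UMIs behind this, 149 came from the 5 barcodes of 20000 UMIs or more, and the median over single barcodes was 607 CPM in the antagonist set and 315 CPM in the control set. With the goblet gate at 4% the log2 ratio of Mmp7 turned to -0.41 and that of Ccl6 to -0.65. In the thinned data and with at least 10 Zg16 UMIs the control set held under 20 barcodes, and the comparison was not made.

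The Zg16-rich barcodes weighed on the library totals of goblet genes by differing amounts. Over all kept barcodes Zg16 was at 1249 CPM in the antagonist library and 393 CPM in the control library, a ratio of 3.18 (3.13 to 3.22). The Zg16-rich barcodes held 59.0% of the antagonist Zg16 UMIs, and without them the ratio was 2.16, a drop that follows from leaving out barcodes chosen for Zg16. For Clca1 the ratio went from 3.05 to 2.30, with 52.6% of its antagonist UMIs in these barcodes, and for Muc2 from 1.64 to 1.40 with 46.4%. Fcgbp went from 1.76 to 1.62 and Tff3 from 1.48 to 1.26, whereas Agr2 went from 1.17 to 1.26 and Spink4 from 0.901 to 0.924. Guca2a went from above 1 to below it, from 1.35 to 0.913 (0.859 to 0.971), and so did the histone Hist1h2ap, from 1.20 to 0.820. When all barcodes over 20000 UMIs were left out of both libraries instead, Spink4 was above 1, at 1.29 (1.28 to 1.30). Guca2a was then at 1.09 (1.03 to 1.16) and Hist1h2ap at 0.889. Apoa1 went from 1.72 to 2.08 and Lgr5 from 0.0467 to 0.0538, so the low level of Lgr5 in the antagonist library was present with and without these barcodes. With the shared barcodes left out of both libraries, the ratio over all kept barcodes was 3.04 for Zg16, 2.91 for Clca1 and 1.62 for Muc2. It was 1.20 for Guca2a and 0.972 for Spink4. In these summed values, fewer cells of a type and less RNA per cell cannot be told apart.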

How the data were processed

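The deposited files give raw UMI counts for 31053 genes in each barcode. The authors used Cell Ranger with GRCm38 (mm10) according to the submitters' processing notes, and per the file headers the software version was 3.1.0. For the choice of barcodes and the annotation release, the sources used here state nothing. The filter kept 11263 of 12672 control barcodes (88.9%) and 11019 of 13085 antagonist barcodes (84.2%). Raw counts were summed over the barcodes of a set and divided by the set's total and multiplied by 1000000 to give CPM. Ratios have exact conditional binomial intervals, levels exact Poisson intervals and shares exact (Clopper-Pearson) intervals, all at 95%, and a count of 0 was given a limit of 3 counts. Genes with at least 50 CPM in a set and 100 UMIs over both were compared, and those 2-fold apart were counted. List medians used genes with 20 UMIs or more over both sets, with 0.5 added to each sum.

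Neighbours came from 30 principal components of 2000 variable genes on counts scaled to 10000 and log-transformed. Named genes, leaving out rule genes, unnamed models, mitochondrially encoded, ribosomal, haemoglobin, immunoglobulin and T cell receptor genes, were the 12 highest and 12 lowest ratios against the goblet gate and against like depth, 8 and 8 against the control set and 6 and 6 against all others, and any gene of a marker list. The comparison with all others, the variance over mean, the shared-barcode checks, the values within 1 range of UMIs or without the deepest control barcode, and the pairs of markers were added after seeing the data. Members and lists were chosen with earlier results of these data known. Doublets were not called; an alternative leaves out barcodes over 20000 UMIs. Ratios and intervals were tested on simulated data. Other value columns in the files numbered 0. Python 3.11.15, NumPy 2.4.6, pandas 2.3.3, SciPy 1.17.1, scikit-learn 1.9.0 and matplotlib 3.10.9 were used.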

Additional observations from a re-analysis of the deposited data

How the results depend on the processing

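No paired analysis was possible because each condition has 1 library, and for the same reason no library could be left out. The 7.87% share of the antagonist library became 11.6% with at least 1000 genes and at most 10% mitochondrial UMIs, 9.18% and 5.93% with Zg16 at 3 or 10 UMIs, 6.76% with the goblet gate at 1%, 2.57% with the Paneth gate at 2%, 5.14% without barcodes over 20000 UMIs and 7.22% without shared barcodes. The control share of 0.249% became 0.426% and 0.107% with Zg16 at 3 or 10 UMIs, 0.444% with Zg16 at 0.1% of UMIs, 0.364% with the goblet gate at 4% and 0.119% after thinning. Against the goblet gate the 142 higher and 231 lower genes became 21 and 120 with that gate at 1%. The higher ones became 286 with it at 4% and 218 with the Paneth gate at 2%, and the lower ones 130 after thinning. A filter at 20 CPM gave 305 and 418, one at 200 CPM 55 and 77, and a median-of-ratios factor 98 and 272. Against like depth the 43 higher genes became 21 with the filter at 200 CPM and 11 against all kept barcodes. The 21 lower ones became 12 with Zg16 at 3 UMIs, 7 with Zg16 at 0.1% and against other barcodes of any depth, 1 after thinning, 4 without barcodes over 20000 UMIs, 12 without shared barcodes, 9 with only Zg16-rich barcodes of the same UMI range, 8 with equal weight per barcode, 33 and 11 with filters at 20 and 200 CPM, and 5 against all kept barcodes. Antagonist against control, the 109 higher genes became 67 with Zg16 at 3 UMIs, 57 with the goblet gate at 4%, 165 with the Paneth gate at 2%, 178 without barcodes over 20000 UMIs, 184 with equal weight per barcode, and 355 and 24 with the filters at 20 and 200 CPM. The 114 lower ones became 66 with the goblet gate at 4%, 187 without barcodes over 20000 UMIs, 565 with equal weight per barcode, and 295 and 32 with the filters. The neighbour share of 77.5% became 37.8% after thinning and 61.5% without barcodes over 20000 UMIs. The number of marker lists with a summed level at least 2-fold apart from like depth, 4 of 13, was 3 or 4 under every alternative run. Among 848 values of 64 named genes under alternatives, 6 turned sign. These were Mmp7 (-0.41) and Ccl6 (-0.65) against the control set with the goblet gate at 4%, Spink1 against like depth after thinning (0.11), and Mptx2 (-0.12), Ang4 (-0.25) and Selenom (-0.17) against all kept barcodes, all as log2 ratios. Of the 13 lists, some with ratios near 1 against like depth did turn with only Zg16-rich barcodes of the same UMI range. The ratio of the Notch list went from 0.970 to 1.07, and that of the G2 and M phase list from 1.09 to 0.996. A changed filter tests other genes by construction, and the cause of the other shifts was not tested.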
